A study of Mus musculus with 32 samples.

Results

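The 48 genes described here encode the proteins of the spliceosomal small nuclear ribonucleoproteins (snRNPs) and the factors that work directly with them. They were taken by symbol from the 44081 genes of the combined 3′UTR count table (symbols beginning with Snrp, with Lsm, Sf3a, Sf3b, U2af or Prpf followed by a digit), and 1 matching pseudogene was left out. No measured value was used to choose them. They were grouped by role into 8 Sm ring genes, 6 genes of the LSm ring of U6, 5 U1 protein genes, 10 U2 protein genes, 3 U2AF genes, 10 genes of the U4/U6.U5 tri-snRNP and Prp19, 2 U7 LSm genes and 4 cytoplasmic LSm genes. Snrnp70, Snrnp200 and other symbols that begin with Snrnp fall outside the rule and are given with the other spliceosome genes. Sf3b6, Sf3b14 and Lsm8 had no row under those symbols.

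RNA was measured in the soma and in the dendrites of the same 16 single hippocampal neurons, cut apart with a micropipette and sequenced as 32 separate libraries. All neurons came from C57BL/6 mice at embryonic day 18 and had been 15 days in culture, with no treatment, so the groups differ only in the compartment collected. Polyadenylated RNA was amplified in 3 rounds of in vitro transcription in neurons 1 to 4 and in 2 rounds in neurons 5 to 16, and ERCC spike-in RNA is labelled as 0 in neurons 1 and 2 and as present in the others. The design text speaks of several cultures and days, and which neurons share one was not given. Each soma library is 1 cell body and each dendrite library the dendrites of that cell, so a smaller amount of collected material and less of a given RNA cannot be told apart in these counts.

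Splicing removes introns in the nucleus. In each snRNP a small nuclear RNA (U1, U2, U4 or U5) carries a ring of Sm proteins, U6 carries the related LSm ring, and proteins particular to each particle are added: U1 recognises the 5′ splice site, U2AF and U2 recognise the 3′ end of the intron and the branch point, and the U4/U6.U5 tri-snRNP brings in the catalytic RNAs. Sm rings are put onto the small nuclear RNAs in the cytoplasm before the particles return to the nucleus, and an LSm ring with Lsm1 in place of Lsm8 acts in mRNA decay. The mRNAs of all these proteins are translated in the cytoplasm, and it is those mRNAs that were counted here. The proteins were not measured.

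Dendrite libraries held 646521 to 6954420 reads on 3′UTR regions, and soma libraries 925525 to 21169974. Among 5 markers of the labelled cell type, Map2, a dendritic microtubule protein, was higher in dendrites (log2 fold change 2.66, edgeR adjusted p = 0.00202). It was the 1 marker of the 5 with an adjusted p of at most 0.05, and their median was -1.22. Tubb3 (-1.24), Snap25 (-1.22) and Rbfox3 (-1.62) had fitted values under 0, and Nefl lay at 0.98. Of 5 RNAs listed as dendritic, Map2 was again the 1 that passed, and their median was 0.36. The GABAergic marker Gad1 had reads in all 32 libraries, with medians of 1722 CPM in dendrites and 6990 CPM in somas, whereas 5 pyramidal markers summed to medians of 212 and 106 CPM. The labels say only hippocampal neuron. Of other cell types, 5 astrocyte markers summed to 0 to 1573 CPM in dendrites and 0.541 to 514 CPM in somas, with Gfap at 0 in 10 dendrites and 12 somas. The 5 microglial markers summed to 0 to 384 CPM in dendrites and 0 to 10.9 CPM in somas. The 5 oligodendrocyte markers summed to 0 to 606 CPM in dendrites and 0 to 330 CPM in somas. The 4 endothelial markers summed to 0 to 135 CPM in dendrites and 0 to 129 CPM in somas, with Cldn5 at 0 in all libraries. RNAs retained in the nucleus (Malat1, Meg3, Snhg11, Neat1 and Miat summed) ran from 1.32 to 1808 CPM in dendrites, median 516, and from 33.3 to 12136 CPM in somas, median 1796. The soma of neuron 12 stood apart from the other somas, with the lowest such sum and Malat1 at 0, and the dendrites of neuron 15 had the lowest sum of all. The part of these differences in the results below was not tested.

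The mRNAs of the splicing machinery were seen in fewer dendrites than somas, as genes in general were: at 10 reads or more, a dendrite library held a median of 6052.5 genes and a soma library 9378.5. At the same minimum of 10 reads, 6 to 40 of the 48 genes were detected in a dendrite library (median 26) and 30 to 48 in a soma library (median 43.5). Within a neuron, the soma held 17.4 ± 10.3 more of them than the dendrites (SD, n = 16), and 15 of 16 neurons had more in the soma. Neuron 5 was the exception, with 40 in the dendrites and 33 in the soma. The dendrites of neurons 12, 15 and 16 held 10, 9 and 6. These libraries also held the fewest genes of all kinds (3794, 1570 and 2485) and the highest mitochondrial shares of reads (25.8%, 35.8% and 32.4%). Over all libraries that share had a median of 13.5% in dendrites and 1.05% in somas, and its part in the results was not tested. With the reads of both libraries of a neuron thinned to the same number, the medians were 26 and 39.5. Of the 48 genes, 24 reached 10 reads in at least 15 somas, against a background of 34.8% of the 10880 genes tested. Only Snrpn did so in at least 15 dendrites, where the background was 6.99%.

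**Figure D1:**
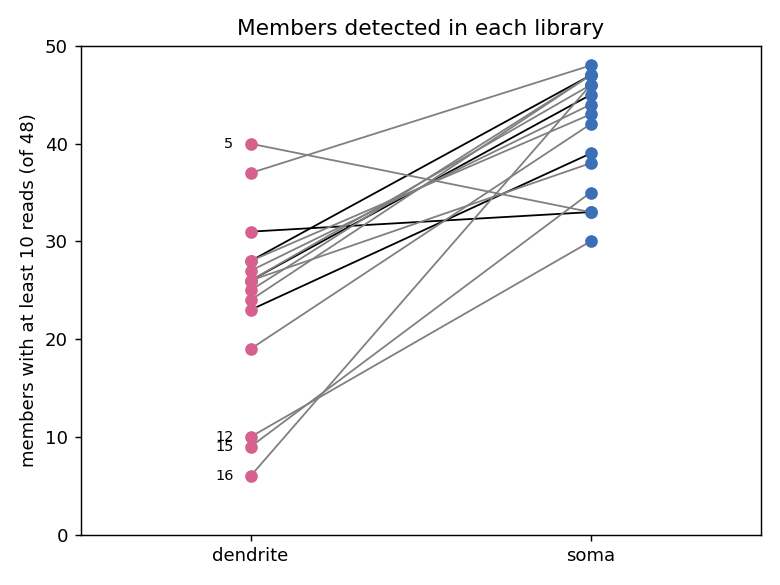
Number of the 48 genes with at least 10 reads (vertical axis) in the dendrites (pink) and soma (blue) of each of 16 neurons, joined by lines, black for 3 and grey for 2 rounds of amplification. Neurons 12, 15 and 16 have the fewest in dendrites (10, 9 and 6), and neuron 5 is the one line that falls from dendrite to soma.

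A gene entered the test if 16 or more of the 32 libraries held a read of it, which all 48 did. Levels are given as CPM, the counts scaled to a common library total with the trimmed-mean factors of TMM. The difference is the log2 fold change of dendrite over soma from edgeR's quasi-likelihood test with the neuron as a block, and a gene was called at a Benjamini-Hochberg adjusted p of at most 0.05 over all 10880 genes. A negative value means a lower level in dendrites as fitted within neurons. The mean CPM can still be higher in dendrites, as given below. The median gene lay at -1.49, so a value is also placed against that gene where it matters.

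Of the 48 genes, 7 were called higher in somas (14.6%, against a background of 5.71% of all genes), and 0 were called higher in dendrites, where the background was 0.827%. The 7 were the tri-snRNP genes Prpf6 and Prpf4b, the U2 genes Sf3b1 and Snrpb2, the U1-associated Prpf40b, the LSm ring gene Lsm3 and the U7 gene Lsm10. Lsm10 entered the test through its soma reads, as given with its values, and 6 were called without it. Of these 6, Prpf40b had reads in the fewest dendrites (6, against 14 somas), so its entry also rested mainly on soma reads. At an unadjusted p under 0.05, 17 genes were higher in somas (background 26.7%) and 0 in dendrites. DESeq2 called 30 higher in somas (background 46.2%) and 0 higher in dendrites (background 4.26%). The median of the 48 genes was -2.05, which is 0.56 below the median gene, and 29 of the 48 lay below it. A fitted value under 0 was found for 46 of the 48, against 78.8% of all genes.

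These calls turned on the scaling, the block and single neurons. With the dendrite libraries rescaled so that the median gene lay near 0, 0 of the 48 were called higher in somas (background 0.846%) and 1, Snrpn, was called higher in dendrites (background 5.04%). Without the neuron block 0 were called in either direction (background 0.708% in somas and 1.44% in dendrites). The fitted value was above 0 for 2 of the 48 genes under the reported settings, for 17 after the rescaling and for 17 without the block. Without neuron 16, whose dendrites held 6 of the genes, 0 were called (1.16% of all genes). Without neuron 12 there were 2 (2.88%), and without neuron 15 there was 1 (2.23%). Leaving out any other neuron than 2 and 5 left 1 to 4 (2.22% to 4.88%). The number rose to 8 (8.71%) without neuron 2 and to 10 (8.93%) without neuron 5. The values of every gene overlapped between the compartments, as they did for all genes tested.

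**Figure D2:**
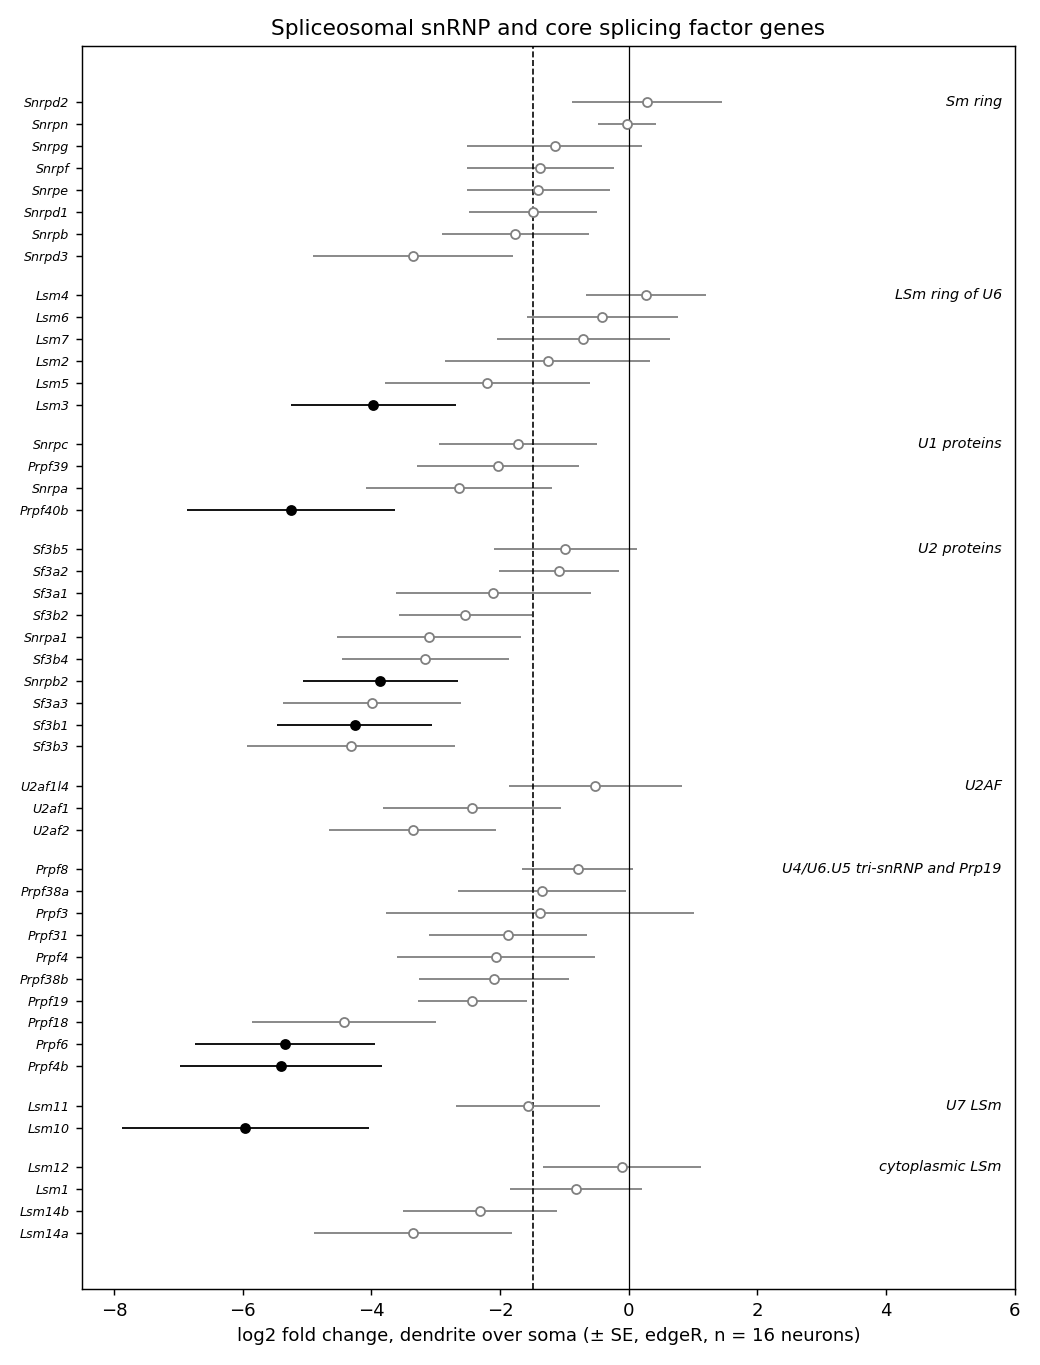
Log2 fold change of dendrite over soma with its standard error (horizontal axis, edgeR, 16 neurons) for 47 of the 48 genes, grouped by role. Filled black points passed the adjusted p of 0.05 (7 genes), open grey points did not, the solid line marks 0 and the dashed line the median of all genes at -1.49.

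The Sm ring is the heptameric core shared by U1, U2, U4 and U5. None of its 8 genes was called, their median was -1.39, and 6 of the 8 lay above the median gene. Snrpd2, for SmD2, had 0 to 112 CPM in dendrites with a median of 28.6, and 0 to 42.4 CPM in somas with a median of 18.1. Its log2 fold change was 0.28 (SE 1.16, adjusted p = 0.879, edgeR), the highest of the 48 genes, and the soma range lay within the dendrite range. Snrpd3, for SmD3, was the lowest of the ring. It ran from 0 to 123 CPM in dendrites, median 5.28, and from 0 to 106 CPM in somas, median 39.7, with a log2 change of -3.36 (SE 1.56, adjusted p = 0.141). The remaining genes Snrpb, Snrpd1, Snrpe, Snrpf and Snrpg lay between -1.77 and -1.15.

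Snrpb and Snrpn encode the interchangeable SmB and SmN proteins, and Snrpn is an imprinted gene of brain, read from the paternal copy. Snrpn had 222 to 1638 CPM in dendrites, median 726, and 207 to 1291 CPM in somas, median 593. No library was at 0, the ranges overlapped almost entirely, and 10 of 16 neurons had the higher value in dendrites. The log2 fold change was -0.03 (SE 0.45, adjusted p = 0.969), which is 1.46 above the median gene. Set against that gene by rescaling, it was 1.46 with an adjusted p of 0.0316. Snrpb, in contrast, ran from 0 to 198 CPM in dendrites, median 16.6, and from 0 to 237 CPM in somas, median 49.3, with a log2 change of -1.77 (SE 1.15, adjusted p = 0.278). The SD over neurons of the log2 ratio of the compartments was 0.851 for Snrpn and 2.43 for Snrpb, and 1.31 to 4.02 for the 47 genes other than Snrpn. The difference between Snrpb and Snrpn was not tested. The Snrpn reads need care: the region (GRCm38 chromosome 7, 59982495 to 60140219, minus strand) overlaps the annotated gene Gm38393 on the same strand, only 2.76% of its 100890 reads fell in the windows counted for single 3′ ends, and the exon counts held 21 Snrpn and 19 Snurf reads over all libraries. Whether the Snrpn reads come from the Snrpn mRNA cannot be told apart from another transcript of that strand here.

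The LSm ring of U6 had a median of -0.98 over its 6 genes, 4 of them above the median gene. Relative to that gene the ring lay at 0.51 in all 16 neurons, at -0.63 in those with 2 rounds and at 1.31 in those with 3 rounds. All 6 proteins also stand in the cytoplasmic decay ring. Lsm3 (GRCm38 chromosome 6, 91515928 to 91522625, plus strand) had 0 to 57.4 CPM in dendrites, median 1.70, and 4.37 to 164 CPM in somas, median 41.5. The soma was higher in 15 of 16 neurons, and 5 dendrites but no soma were at 0. Its log2 fold change was -3.97 (SE 1.28, adjusted p = 0.0491). The annotated AC161456.1 overlaps Lsm3 on the same strand. Lsm4 stood at the other end of the ring, with 0 to 222 CPM in dendrites, median 51.4, and 3.95 to 193 CPM in somas, median 34.7. On the log2 scale the fold change was 0.26 (SE 0.93, adjusted p = 0.859), and 10 neurons had the higher value in dendrites. Lsm5 had a mean and a fitted change of opposite sign. Its dendrite median was 0 and its highest dendrite value, in neuron 15, was 245 CPM. Its mean was higher in dendrites (21.9 against 4.40 CPM), while its fitted log2 fold change was -2.20 (SE 1.59, adjusted p = 0.329).

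The mean level and the fitted change took opposite signs in more genes than Lsm5. The mean CPM was higher in dendrites for 17 of the 48 genes, 15 of which had a fitted value under 0. Over all genes tested, 22.5% showed the same pair of signs. The fit compares the compartments within each neuron, while a mean weighs libraries with many reads of a gene more. The ratio of mean CPM, soma over dendrite, stands beside each called gene below, and for Lsm3 it was 4.06.

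The U1 proteins, which recognise the 5′ splice site, had a median of -2.04 over 5 genes, and 1 was called. Prpf40b (GRCm38 chromosome 15, 99295087 to 99317018, plus strand), an adaptor associated with U1, ran from 0 to 34.8 CPM in dendrites, median 0, and from 0 to 65.7 CPM in somas, median 21.7. With the neuron block the log2 fold change was -5.25 (SE 1.61, adjusted p = 0.0413) and its mean was 4.88 times higher in somas. Reads were absent in 10 dendrites and 2 somas, and 3 dendrites but 11 somas reached 10 reads. The soma was the higher compartment in 13 of 16 neurons. Snrpa and Snrpc, for core U1 proteins, and Prpf39, for a partner of U1, lay between -2.64 and -1.73.

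The U2 proteins bind the branch point region and had a median of -3.14 over 10 genes, below that of the Sm ring, the LSm ring, U1 and the tri-snRNP. The order depended on the neurons: relative to the median gene U2 lay at -1.64 in all 16 neurons, at -2.19 with 2 rounds of amplification, and at -0.24 with 3 rounds, where the tri-snRNP lay lower at -1.39. Of these, 8 lay below the median gene, and 7 of the 10 had an unadjusted p under 0.05 (background 26.7%), of which 2 were called. Sf3b1 (GRCm38 chromosome 1, 54985169 to 55027481, minus strand) encodes the scaffold of SF3b, which holds the branch point. It had 0 to 161 CPM in dendrites, median 5.51, and 49.7 to 474 CPM in somas, median 122. Every soma held Sf3b1 reads, 4 dendrites held none, and 15 of 16 neurons were higher in the soma. In the fit its log2 fold change was -4.26 (SE 1.21, adjusted p = 0.0295), and the mean was 4.00 times higher in somas. Only 0.663% of the Sf3b1 reads fell in the windows counted for single 3′ ends. On exon counts its log2 fold change was -2.74 (adjusted p = 0.0875).

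Snrpb2 (GRCm38 chromosome 2, 143063039 to 143072853, plus strand) encodes the U2B″ protein bound to U2 RNA. It ran from 0 to 191 CPM in dendrites, median 4.14, and from 5.44 to 224 CPM in somas, median 66.8. All 16 somas and 8 of 16 dendrites reached 10 reads, and the highest dendrite value was in neuron 12. The fit gave a log2 change of -3.86 (SE 1.20, adjusted p = 0.0434), with a mean 2.54 times higher in somas. The partner of U2B″ is encoded by Snrpa1, which lay at -3.11 (SE 1.43, adjusted p = 0.137).

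Sf3b3 had the lowest value of the U2 group. It ran from 0 to 108 CPM in dendrites, median 0.758, and from 0.409 to 106 CPM in somas, median 21.3, with a log2 change of -4.32 (SE 1.61, adjusted p = 0.0797). Sf3b5, a small SF3b subunit, was the highest at -0.98 (SE 1.11, adjusted p = 0.532), with dendrites at 0 to 177 CPM, median 21.1, and somas at 1.30 to 151 CPM, median 31.8. Sf3a2 reached 10 reads in 2 dendrites and 3 somas, which is too few to place it. The remaining genes Sf3a1, Sf3a3, Sf3b2 and Sf3b4 lay between -3.99 and -2.11. RefSeq gives 0610009D07Rik as an older name of Sf3b6, the SF3b subunit next to the branch point. That row, outside the 48, had medians of 32.9 CPM in dendrites and 91.6 CPM in somas and a log2 change of -2.94 (SE 1.23, adjusted p = 0.110).

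U2AF is the heterodimer that reads the polypyrimidine tract and the AG at the intron's end. U2af2, the large subunit, ran from 0 to 72.8 CPM in dendrites, median 6.49, and from 5.92 to 110 CPM in somas, median 38.7. Its log2 fold change was -3.36 (SE 1.30, adjusted p = 0.0881), and 13 of 16 neurons were higher in the soma. U2af1, the small subunit, had -2.44 (SE 1.38, adjusted p = 0.216). Its paralog U2af1l4, which overlaps Gm49396 on the same strand, had -0.52 (SE 1.35, adjusted p = 0.801), with dendrites at 0 to 123 CPM, median 11.3, and somas at 0 to 39.5 CPM, median 20.6.

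The U4/U6.U5 tri-snRNP and Prp19 group, which delivers and then activates the catalytic core, had a median of -2.08 over 10 genes, and 2 were called. Prpf6 (GRCm38 chromosome 2, 181591868 to 181655660, plus strand), which bridges U5 to U4/U6, ran from 0 to 28.6 CPM in dendrites, median 0.796, and from 2.19 to 71.0 CPM in somas, median 34.9. All 16 somas but only 3 dendrites reached 10 reads, and 14 of 16 neurons were higher in the soma. The fit gave -5.35 on the log2 scale (SE 1.40, adjusted p = 0.0201), while the mean was 6.65 times higher in somas. It was called in 15 of the 16 fits that left out 1 neuron, the most of the 7 genes, and in the fit on exon counts.

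Prpf4b (GRCm38 chromosome 13, 34875302 to 34906064, plus strand) encodes a kinase that phosphorylates tri-snRNP proteins. It had 0 to 53.0 CPM in dendrites, median 0.796, and 0 to 119 CPM in somas, median 33.9. Reads were absent in 7 dendrites and 1 soma, and 3 dendrites but 14 somas reached 10 reads. In the fit the gene had a log2 change of -5.41 (SE 1.57, adjusted p = 0.0327), and the mean was 4.75 times higher in somas.

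The highest of the tri-snRNP group was Prpf8, the large U5 protein that surrounds the catalytic RNA. It ran from 0 to 1391 CPM in dendrites, median 76.4, and from 20.7 to 370 CPM in somas, median 121. Its highest dendrite library was neuron 15, where 9 of the 48 genes were detected. Its fitted value was -0.80 (SE 0.86, adjusted p = 0.517) on the log2 scale. Prpf18, needed at the second catalytic step, had -4.43 (SE 1.44) and an adjusted p of 0.0502, just outside the call. Prpf19, the ubiquitin ligase of the Prp19 complex, had -2.43 (SE 0.85, adjusted p = 0.0650), with the soma higher in 15 of 16 neurons. The remaining genes Prpf3, Prpf4, Prpf31, Prpf38a and Prpf38b lay between -2.10 and -1.35.

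**Figure D3:**
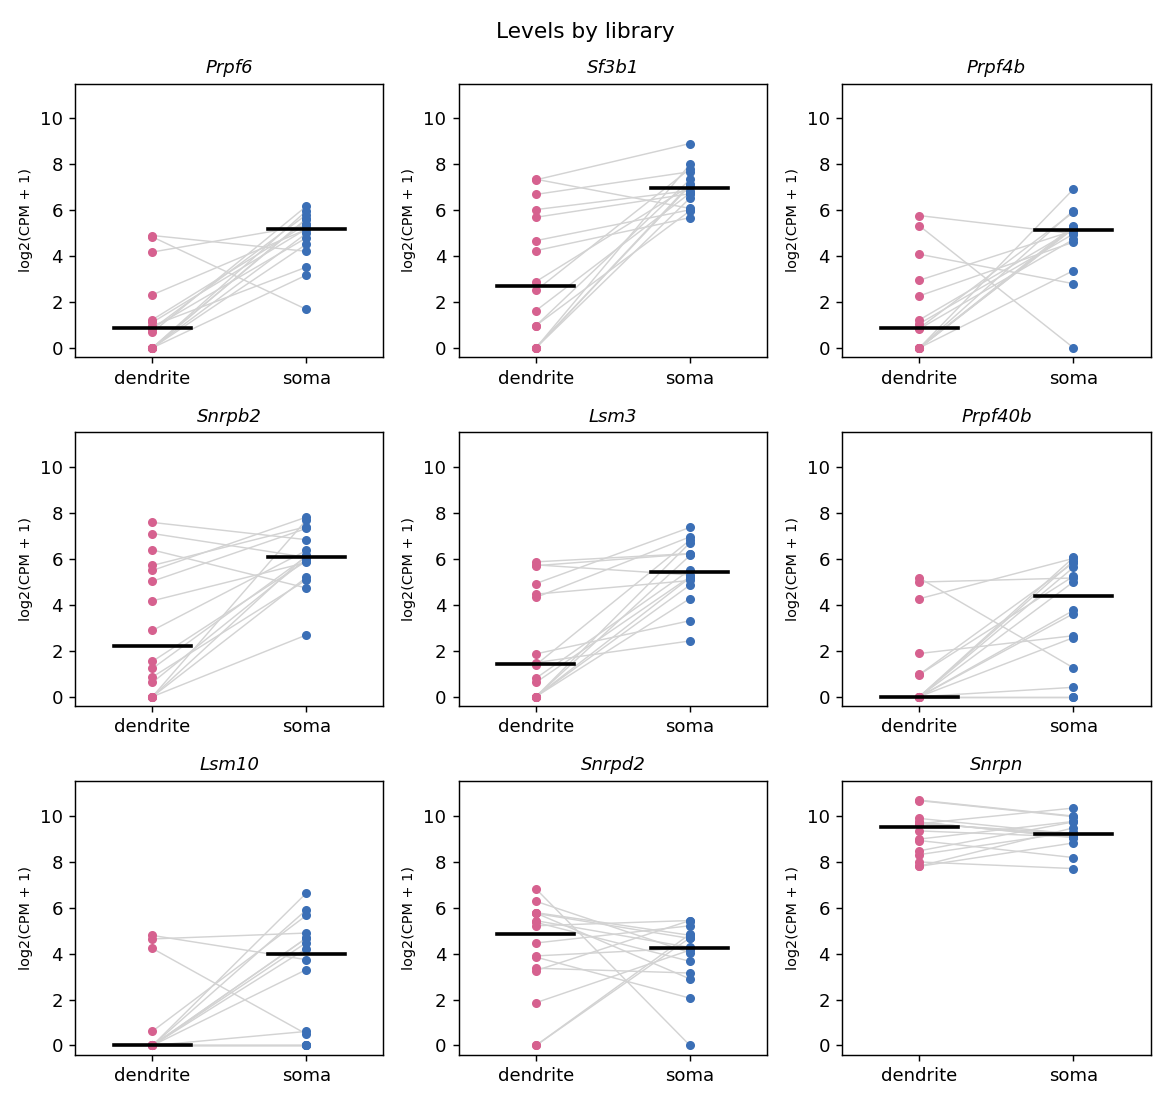
Levels as log2(CPM + 1) (vertical axis) in dendrites (pink) and soma (blue) of 16 neurons, with lines joining the compartments of a neuron and black bars at the medians, for the 7 called genes, Snrpd2 and Snrpn. In each of the called genes 13 to 16 of the 16 dendrites lie below the soma median and at least 4 reach the lowest soma, while Snrpn stays between 207 and 1638 CPM in all 32 libraries.

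In U7, the snRNP that cuts histone mRNAs, Lsm10 and Lsm11 take the places of SmD1 and SmD2. Lsm10 (GRCm38 chromosome 4, 126096623 to 126098584, plus strand) ran from 0 to 26.7 CPM in dendrites, median 0, and from 0 to 98.8 CPM in somas, median 15.0. It had reads in 4 dendrites and 12 somas, exactly the minimum of 16 libraries, so it entered the test through its soma reads. Fitted over neurons, the log2 fold change was -5.97 (SE 1.92, adjusted p = 0.0491), and the mean was 5.04 times higher in somas. Of the 12 fits without 1 neuron in which it could be tested, 1 called it. Lsm11 ran from 0 to 376 CPM in dendrites, median 23.2, and from 0 to 294 CPM in somas, median 83.2. The change was -1.56 on the log2 scale (SE 1.12, adjusted p = 0.324).

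The cytoplasmic LSm genes act outside the nucleus, and 0 of the 4 were called. Their median of -1.57 was close to that of all genes. Lsm12 was the highest, with 0 to 95.3 CPM in dendrites, median 16.0, 0.461 to 194 CPM in somas, median 11.9, and a log2 change of -0.11 (SE 1.23, adjusted p = 0.960). Lsm1, the subunit that sets the decay ring apart from that of U6, had -0.82 (SE 1.03, adjusted p = 0.579). Of the paralogs that bind repressed mRNAs, Lsm14a ran from 0 to 97.1 CPM in dendrites, median 0.773, and from 0 to 173 CPM in somas, median 29.8. It had a log2 change of -3.36 (SE 1.54, adjusted p = 0.136). Lsm14b ran from 0 to 144 CPM in dendrites, median 21.5, and from 2.18 to 101 CPM in somas, median 41.6, with a log2 change of -2.31 (SE 1.20, adjusted p = 0.179).

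The 14 Sm and LSm ring genes had a median of -1.32, with 10 above the median gene and 1 called. The 23 genes of U2, U2AF and the tri-snRNP had a median of -2.44, with 17 below the median gene and 4 called. This contrast between roles was not tested. The sign of both rings against the median gene turned with 2 rounds (-0.63 for the LSm ring and -0.08 for the Sm ring). It also turned without a filter on low counts (-0.95 and -1.30). In several fits that left out 1 neuron the Sm ring turned too (lowest -0.16, without neuron 4), while the LSm ring did not. The contrast went along with coding length. Spearman's rho between the log2 fold change and coding length was -0.42 over the 48 genes. Over 9114 genes with a coding length it was -0.08. Both are correlations across genes, which share the same 32 libraries and are no replicates. The 17 genes with a coding length under 600 nt had a median of -1.26 (all such genes -0.89), and the 15 genes of at least 1500 nt had -2.43 (all such genes -1.80). Length of the 3′UTR (rho -0.07) and mean level (rho 0.11) showed little relation with the change.

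**Figure D4:**
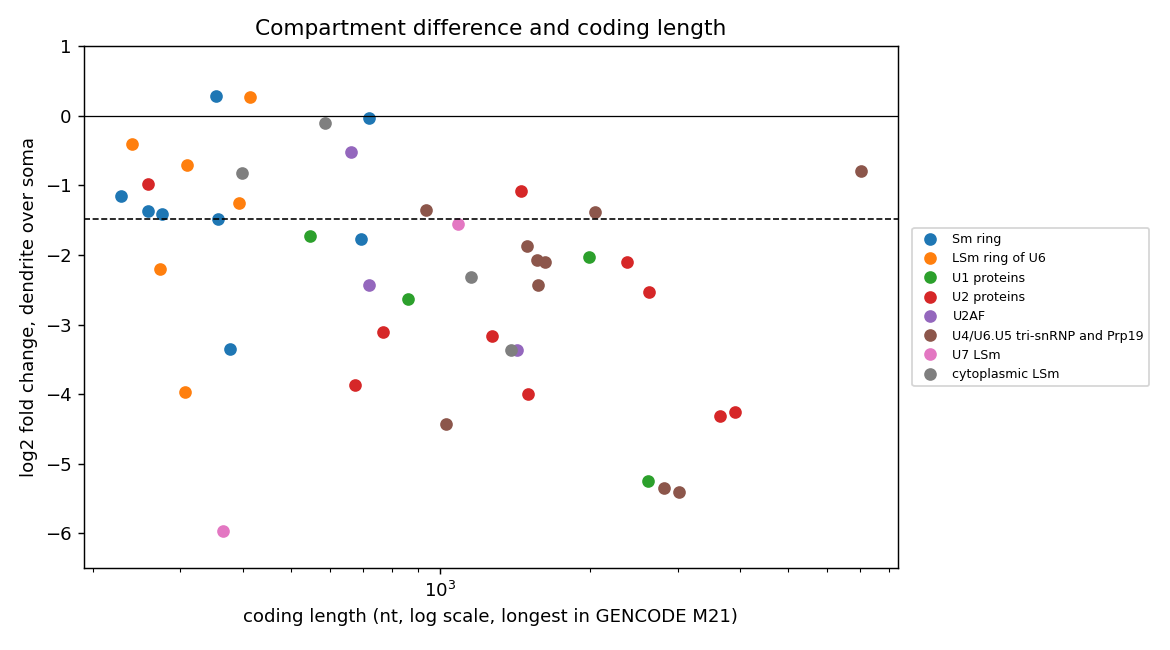
Log2 fold change of dendrite over soma (vertical axis) against coding length in nt (horizontal axis, log scale) for 47 of the 48 genes, coloured by role, with a solid line at 0 and a dashed line at the median gene. Ring genes cluster at short lengths and nearer to 0, with Lsm3 and Snrpd3 lower, and the longest gene, Prpf8, lies at -0.80.

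Other genes of the pathway, taken from lists of textbook members, gave values of the same sign, a sign also found for 78.8% of all genes. Of 53 other spliceosome genes 50 were tested, with a median of -2.91 (median gene -1.49). Of the 50, 4 were called higher in somas (8%, background 5.71%) and 0 in dendrites (background 0.827%). The 4 were Usp39, Htatsf1, Ddx39b and Cwc27. Usp39, a tri-snRNP protein, ran from 0 to 245 CPM in dendrites, median 0.268, and from 6.34 to 116 CPM in somas, median 50.1, with a log2 change of -5.74 (SE 1.56, adjusted p = 0.0238). Of 17 genes for snRNP assembly, transport and recycling, 14 were tested, with a median of -3.19. Of the 14, Gemin6, Phax and Tgs1 were called higher in somas (21.4%, background 5.71%) and 0 in dendrites (background 0.827%). Gemin6, a subunit of the SMN complex, was at 0 to 2.64 CPM in dendrites, median 0, and at 0 to 142 CPM in somas, median 10.4. It had -6.49 on the log2 scale (SE 1.57, adjusted p = 0.0153), and each of the 13 neurons with reads was higher in the soma. It had reads in 3 dendrites and 13 somas, the minimum of 16 libraries, so it too entered the test through its soma reads. Reads of Cwc27 were held by 5 dendrites and 13 somas, and those of Phax by 7 dendrites and 15 somas. Phax, the export adaptor of small nuclear RNAs, had -5.89 (SE 1.52, adjusted p = 0.0193).

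The rounds of amplification separate neurons 1 to 4 from the rest. In the 12 neurons with 2 rounds the 48 genes had a median of -2.48 (all genes -1.70), and Sf3b1 was the 1 gene called (background 2.88%). In the 4 neurons with 3 rounds the median was -1.05 (all genes -0.62), and 0 were called where the background was 0.00758%. A fitted value above 0 was found for 14 of the 47 genes tested in those neurons. The test of the difference between rounds called 0 of the 48 genes, none had an unadjusted p under 0.05 (background 2.65%), and the smallest was that of Sf3b1 at p = 0.119 (edgeR).

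Whether the compartments used different 3′ ends of a gene was tested on the share of reads on one of its 2 leading annotated 3′ ends. Ends are named by their number in the table, since the files hold no positions for them. Of the 48 genes, 17 had enough reads in at least 5 neurons. An unadjusted p under 0.1 in the exact two-sided permutation of signed ranks was found for 4 (background 8.44%). After adjustment 0 passed, as was the case for all 3508 genes tested. The number of neurons (5 to 13 for the 17 genes) sets the smallest p this test allows. Passing adjustment over 3508 genes was therefore hardly possible, and no conclusion is drawn from its absence. In Prpf38b, a gene of the tri-snRNP group, the share on end 4 rather than end 3 was 0.985 to 1 in dendrites and 0 to 0.907 in somas of 6 neurons, with means of 0.996 ± 0.00667 and 0.440 ± 0.385 (SD, n = 6). All 6 neurons had the higher share in dendrites, with no overlap (exact permutation p = 0.0312, adjusted p = 0.906), and 0.0312 is the smallest p that 6 neurons allow. The reads behind each share ran from 66 to 342 in dendrites and from 20 to 850 in somas. In Snrpa1 the share on end 2 was lower in dendrites in 7 of 7 neurons (0.00386 against 0.0580, exact permutation p = 0.0156, adjusted p = 0.818). In Snrpb and Lsm3 the shares on end 2 were 0.00505 against 0.0198 and 0.00309 against 0.0256, in 9 and 6 neurons (exact permutation p = 0.0312 and p = 0.0625). The difference in mean share was 0.556 for Prpf38b and at most 0.0541 in size for Snrpa1, Snrpb and Lsm3. Larger differences stood among the genes with p above 0.1, such as 0.355 in Snrpd3 (SD 0.572, n = 6, exact permutation p = 0.312).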

How the data were processed

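Somas and dendrites of 16 neurons were compared. The deposited values are raw read counts, made by the authors from reads aligned with STAR 2.4.0 to mm10 (the same assembly as GRCm38): a table of counts per gene over the union of its 3′UTR regions, a table of counts per single 3′ end (500 nt windows), and per-sample exon counts from VERSE. Groups, neurons and rounds of amplification came from the labels. No count is a molecule, since reads carry no molecular identifiers. The genes and gene lists were chosen with earlier results of these data known.

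From the counts, edgeR 4.0.16 in R 4.3.3 was run (TMM, robust quasi-likelihood fit, neuron as a block) on 10880 genes (1 read or more in 16 or more libraries), with Benjamini-Hochberg adjustment and a threshold of 0.05. CPM used TMM-scaled library sizes. The pairing rests on the labels. Same-neuron libraries had deviations from their compartment means correlated at a median of 0.06 (-0.01 to 0.24, 16 pairs). For different neurons the median was -0.01 (-0.18 to 0.26, 240 pairs). The correlation was highest with the cell's own soma for 9 of 16 dendrite libraries. Shares of 3′ ends were tested by exact permutation, requiring 10 reads on both ends together in each compartment. Alternatives were DESeq2 1.42.0, other scalings, filters and features, no block, equal reads, rounds taken apart and each neuron left out. Fits were tested on simulated data. Coding lengths and positions came from GENCODE M21, and older symbols from RefSeq. Values in full were given for each called gene, the highest and lowest of each role, 2 paralog pairs, genes under p of 0.1 in the 3′ end test, and up to 4 genes outside the 48. The values of 1 of the 48 genes are not reported here by name. Lsm5, Lsm1, Prpf18, Prpf19, Snrpa1, U2af1 and the renamed Sf3b6 were named after their values were seen. Whether the neurons came from separate animals was not given, and the p-values measure the spread between these neurons.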

Additional observations from a re-analysis of the deposited data

How the results depend on the processing

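Of the 48 genes, 7 were called under the reported settings, and the number depended on nearly every choice. The share of all genes called higher in somas is given in brackets. DESeq2 called 30 (46.2%) and RLE size factors gave 10 (9.26%). With at least 10 reads in 8 samples 3 were called (4.67%). At equal reads within a neuron there were 2, Prpf6 and Sf3b1 (2.78%). Exon counts gave 1, Prpf6 (2.62%). Sf3b1 was the 1 gene called without a filter on low counts (0.460%) and in the neurons with 2 rounds (2.88%). In those with 3 rounds 0 were called (0.00758%). With the median gene at 0 there was 1, Snrpn, higher in dendrites. Leaving out 1 neuron gave 0 to 10 (1.16% to 8.93%). Without the neuron block (no pairing) 0 were called (0.708%). Of the other spliceosome and assembly genes, 7 were called. The numbers were 52 with DESeq2, 13 with RLE size factors, 3 at equal reads, 2 on exons and 1 without a filter. They were 3 with 2 rounds, 0 with 3 rounds, 1 with the median gene at 0 and 1 without the block. When 1 neuron was left out, 1 to 14 were called. The bracketed shares above are the background of these numbers too, with 0.846% for the median gene at 0. The share of all genes called higher in somas moved from 5.71% to 0.846% with the median gene at 0, where 548 genes were called higher in dendrites and 92 in somas (reported: 90 and 621).

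The log2 fold change took the opposite sign in some settings, most often with the median gene at 0 and without the block (17 of the 48 genes above 0 in each, against 2 under the reported settings) and with 3 rounds (14 of 47). Among the genes given with full values, it was, with the median gene at 0, 1.38 for Lsm12, 0.69 for Prpf8, 0.50 for Sf3b5, 1.46 for Snrpn and 0.95 for U2af1l4. Without the block it was 0.0066 for Prpf38b, 0.33 for Prpf8, 0.051 for Sf3b5, 0.090 for Snrpn and 0.077 for U2af1l4. In neurons with 3 rounds it was 0.15 for Snrpa1, 0.11 for Snrpb and 0.66 for Snrpn, and with 2 rounds 0.15 for Lsm12. With at least 10 reads in 8 samples it was 0.22 for Lsm12 and 0.28 for Snrpn, at equal reads 0.36 and 0.39, and on exons 0.083 for U2af1l4. Leaving out 1 neuron gave -0.44 to 0.54 for Lsm12, -0.085 to 0.33 for Snrpn and -0.89 to 0.090 for U2af1l4. The causes were not tested.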

Other observations

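The low share of reads in single 3′ end windows was not confined to Snrpn. Of the 48 genes, 8 had under 50% of their 3′UTR reads in the 500 nt windows, among them Prpf19 (0.322%), Sf3b1 (0.663%), Snrpn (2.76%), Lsm1 (7.44%), Sf3a1 (17.3%), Prpf4 (27.0%) and Prpf39 (40.8%). The median over the 48 genes was 99.1%. For these genes a measurement restricted to the windows of single 3′ ends would miss most of the reads that the gene table counts.

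The dendrites of neuron 15 held 9 of the 48 genes at 10 reads or more, yet they had the highest dendrite level of 7 of them, among them Prpf8 (1391 CPM), Prpf31 (825 CPM), Prpf19 (674 CPM) and Prpf18 (568 CPM), and the sum over the 48 genes was 5694 CPM, the highest of all libraries. The same library had the lowest sum of nuclear RNAs.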
